A study of Cicer arietinum with 8 samples.

Results

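Flowers and early pods of chickpea (Cicer arietinum) that had passed through a week of cold nights were compared with the same tissues of unstressed plants. The comparison is 1 of 8 in a study of drought, cold and high salinity, and it was taken by its label, cold flowers, with no use of measured values. It has 3 of the series' 24 arrays, numbered 1 to 3 by the submitters. All 756 probes are described.

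All plants were of genotype ICC 3996, and those of the cold and drought groups were sampled 2 weeks after flowering. The cold group was 5 potted plants given days of 12 h at 15 to 25 °C and nights of 12 h at 5 °C, with harvest after night 7. The control group was 5 plants that stayed in a glasshouse at 15 to 25 °C and were harvested together with the cold plants. Cold leaves had the same treatment and controls as labelled, and drought flowers were the same tissue from pots dried to 30% water content, with controls at 80%. RNA came from pooled tissue of a single genotype. The series design calls the arrays biological replicates, and the labels do not say how the plants were divided among them, so every p-value here reflects only how the arrays varied.

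Chickpea is a cool-season legume that is sensitive to chilling when it flowers. Cold at that stage is known to impair pollen and to lead to the loss of flowers and young pods, whereas leaves of the same plants usually survive. Plants exposed to low temperature adjust the transcripts of many genes, among them genes for protective proteins and for photosynthesis.

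The arrays were 2-colour cDNA slides. RNA of cold and control flowers was labelled with the dyes Cy3 and Cy5 and hybridised together, so that the ratio of the dyes at a spot compares the groups. On arrays 1 and 2 the cold RNA carried Cy5, and on array 3 it carried Cy3. Each probe had 6 spots. Values below are log2 ratios of cold over control, so that 1 is 2-fold higher in cold flowers and -1 is 2-fold lower. The files name probes only by code, with no gene description or sequence, so no probe can be given a gene or a function here, and the tissue could not be checked against marker genes. Codes beginning with U number 442, with CA 117, with LS 156 and with LC 41.

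Of the 756 probes, 344 were above background in all 6 channels and 177 in none. A probe counted as above background where at least 50% of its spots exceeded the local background mean by 2 of its SDs. The cold channels had fewer such probes than the control channels on every array, with 435 in cold and 522 in control on array 1, 502 and 509 on array 2, and 409 and 440 on array 3. The gap was largest on array 1 and smallest on array 2. It went with the median signal on arrays 1 and 3, which was 1323 in cold and 2856 in control on array 1, and 1139 and 1286 on array 3. On array 2 it was 2211 in cold and 1949 in control. Whether the amount of labelled RNA differed was not tested.

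On 28 probes more cold than control channels were above background, and on 132 probes more control than cold channels were. Array 1 carried most of this, with 1 probe detected in cold alone and 88 in control alone, while array 2 had 23 and 30 and array 3 had 24 and 55. Without array 1 the counts were 36 probes with more cold channels and 73 with more control channels, and without array 2 they were 14 and 126. There were 9 probes above background in all 3 cold channels but not all 3 control channels, and 54 above background in all 3 control channels but not all 3 cold ones. Only LS0616 was above background in 3 channels of one group and 0 of the other, being detected in the control flowers. Its mean normalised log2 signal was 8.61 in cold flowers, not well above background, and 9.99 in control flowers. The bound computed for it, smaller than the difference of these means, was 1.70-fold lower in cold flowers. That bound is rough, since no spot of LS0616 was unflagged in both channels on any array. LS0616 had no ratio in the fit and was not tested.

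Detection differed between the groups of codes. In all 6 channels 70.1% of CA probes were above background, 52.7% of U probes and 18.6% of LS probes. None of the 41 LC probes was above background in any channel of cold flowers, so nothing is known of them in this tissue. The results below are therefore about U and CA probes and the minority of LS probes that could be measured.

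A ratio was obtained for 438 probes on array 1, 450 on array 2 and 359 on array 3, after spots flagged by the image software in either channel were left out. Most ratios were small. The SD over probes was 0.53 on array 1, 0.41 on array 2 and 0.53 on array 3. Changes of 2-fold or more in cold flowers were seen upward for 15 probes and downward for 14 on array 1, 6 and 4 on array 2, and 15 and 10 on array 3. Among the 319 probes with 3 values, the median SD between arrays was 0.28, while the other conditions of the series had medians of 0.31 to 0.42.

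The 3 arrays did not tell one story. Arrays 1 and 2 ranked the probes alike, with a correlation of 0.74 across 403 probes. Array 3 was unrelated to either, at -0.10 with array 1 (322 probes) and -0.09 with array 2 (346 probes). These are correlations across probes of slides that share normalisation, and arrays 1 and 2 share a dye orientation. The other conditions gave 0.01 to 0.72 between arrays of opposite orientation, so the cold flower values are the lowest of the 7 conditions. After the probe-specific dye effect shared by all conditions was taken off, the correlations of array 3 with arrays 1 and 2 were 0.11 and 0.13, still below the 0.14 to 0.86 of the other conditions. With flagged spots kept, they were -0.33 and -0.39 without that step.

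**Figure D1:**
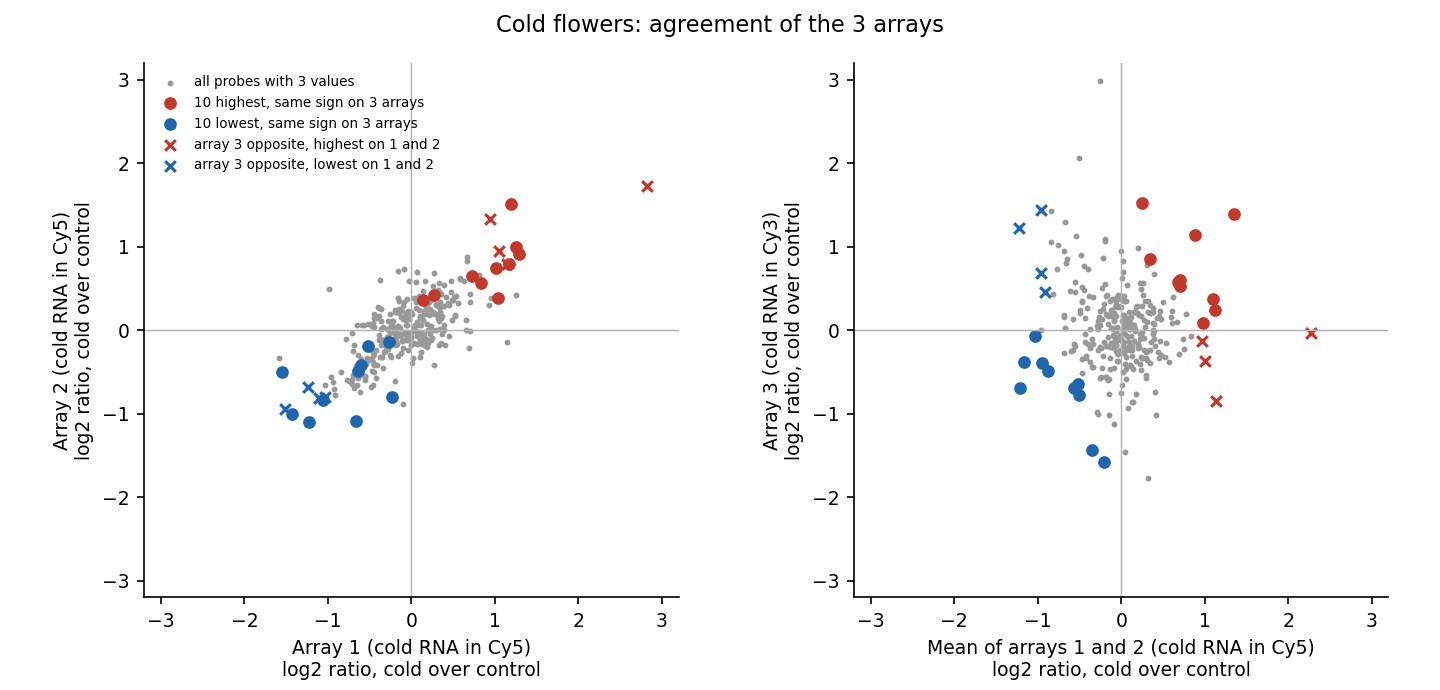
Log2 ratios of cold over control flowers for the 319 probes with a value on all 3 arrays. In the left panel array 1 is on the x axis and array 2 on the y axis, and the points lie along a rising band. In the right panel the mean of arrays 1 and 2 is on the x axis and the dye-swapped array 3 on the y axis, and the points form no band. Filled circles are the 10 highest and 10 lowest fitted probes among those with the same sign on all 3 arrays, and crosses are the probes furthest from 0 on arrays 1 and 2 whose sign was opposite on array 3.

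The signs show the same thing. Of the 319 probes, 101 (31.7%) had the same sign on all 3 arrays, 48 higher in cold flowers and 53 lower. On 116 probes arrays 1 and 2 agreed and array 3 had the opposite sign, 58 in each direction. On the other 102 probes arrays 1 and 2 differed in sign. The dye and the array cannot be told apart here, because array 3 is the only one with the cold RNA in Cy3.

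A linear model with a coefficient for each condition and a common dye term was fitted to 21 arrays of 7 conditions with limma. It gave a cold flower estimate for 428 probes with values on at least 2 arrays. No probe passed a Benjamini-Hochberg adjusted p of 0.05 in limma (0% of 428). The closest to passing stood at 0.0538. Before adjustment, p was under 0.05 for 51 probes (11.9%), of which 25 were higher in cold flowers (5.84%) and 26 lower (6.07%). The methods' t-test, run on the same ratios of 433 probes, also gave 0 after adjustment, with 40 at an unadjusted p under 0.05. The median size of a fitted ratio was 0.17 and the median SE was 0.21. Each SE comes from this model, which estimates the spread of a probe over the arrays of all 7 conditions. The n beside an SE is the number of cold flower arrays with a value.

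The call of 0 was close to the threshold and depended on the processing. Under 10 of the 23 alternatives tried, between 2 and 28 probes passed, and 13 gave none. The same few probes led under most of those settings. U071, U124 and U275 passed in 9 alternatives, CA0857 and U301 in 8, and U059 in 5. Their values are given next.

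U059 was 2-fold higher or more in cold flowers on every array, the only probe of the 319 for which this held. Its ratios were 1.19, 1.51 and 1.39 on arrays 1, 2 and 3. The normalised intensities behind them were 29533 in cold and 12939 in control on array 1, 30952 and 10852 on array 2, and 11484 and 4371 on array 3. The cold signal was thus above its control on each slide and in both dyes. The fitted ratio was 1.44 ± 0.36 (SE, n = 3), or 2.71-fold, with an adjusted p of 0.0691 in limma. The SD between its 3 ratios was 0.16, while the SE also draws on the spread in the other conditions.

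CA0857 behaved alike at a lower size. Its ratios were 1.01, 0.75 and 1.14, and the cold signal was the higher one on each array (10872 against 5403, 11335 against 6744, and 4496 against 2046). The fitted ratio was 0.99 ± 0.23 (SE, n = 3), a 1.99-fold difference with an adjusted p of 0.0691 in limma.

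U301 and U071 had the smallest adjusted p among the probes higher in cold flowers, 0.0538 each in limma. U301 had ratios of 0.83, 0.57 and 0.53 and a fitted value of 0.59 ± 0.12 (SE, n = 3). U071 had ratios of 1.25 and 1.00 on arrays 1 and 2 but only 0.24 on array 3, with a fitted value of 0.66 ± 0.14 (SE, n = 3). The common dye term of U071, estimated over all conditions, was 0.51. Within cold flowers its part in the low array 3 value cannot be told apart from the array itself. In cold leaves U071 had 1.38, 1.17 and 0.32 on arrays 1, 2 and 3, with array 3 again the swapped one.

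U275 and U124 had the smallest adjusted p among the probes lower in cold flowers, 0.0538 each in limma. U275 had ratios of -0.64, -0.48 and -0.70 and a fitted value of -0.64 ± 0.13 (SE, n = 3). Its normalised intensity was 19911 in cold and 31047 in control on array 1, 18249 and 25515 on array 2, and 5714 and 9254 on array 3. U124 was lower by less on arrays 1 and 2 (-0.33 and -0.26) than on array 3 (-0.98), with a fitted value of -0.56 ± 0.12 (SE, n = 3).

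U136 had the lowest fitted ratio of the probes with the same sign on all 3 arrays. Its ratios were -1.43, -1.01 and -0.70. The intensities were 2090 in cold and 5626 in control on array 1, 2964 and 5957 on array 2, and 1602 and 2599 on array 3. Cold was below control each time. The fitted value was -0.97 ± 0.16 (SE, n = 3), with an adjusted p of 0.093 in limma.

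The remaining probes with the same sign on all 3 arrays varied in how evenly the arrays contributed. CA0030 was as even as any, at 0.72, 0.65 and 0.58. U399 (1.28, 0.91 and 0.38) and U316 (1.17, 0.80 and 0.08) were higher mainly on the arrays with the cold RNA in Cy5, and U280 (1.04, 0.38 and 0.60) mainly on array 1. U188 (0.27, 0.42 and 0.85) and U328 (0.14, 0.36 and 1.52) were higher mainly on array 3. Among the lower probes, CA0203 (-1.22, -1.11 and -0.38), U472 (-1.06, -0.83 and -0.39) and LS0125 (-1.55, -0.51 and -0.07) rested mainly on arrays 1 and 2. CA0615 (-0.51, -0.19 and -1.44) and U010 (-0.27, -0.14 and -1.57) rested mainly on array 3. U096 (-0.66, -1.08 and -0.49), CA0689 (-0.60, -0.41 and -0.77) and U437 (-0.23, -0.81 and -0.65) lay between these. Adjusted p-values over all the probes with the same sign named here ran from 0.0538 to 0.507 in limma.

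**Figure D2:**
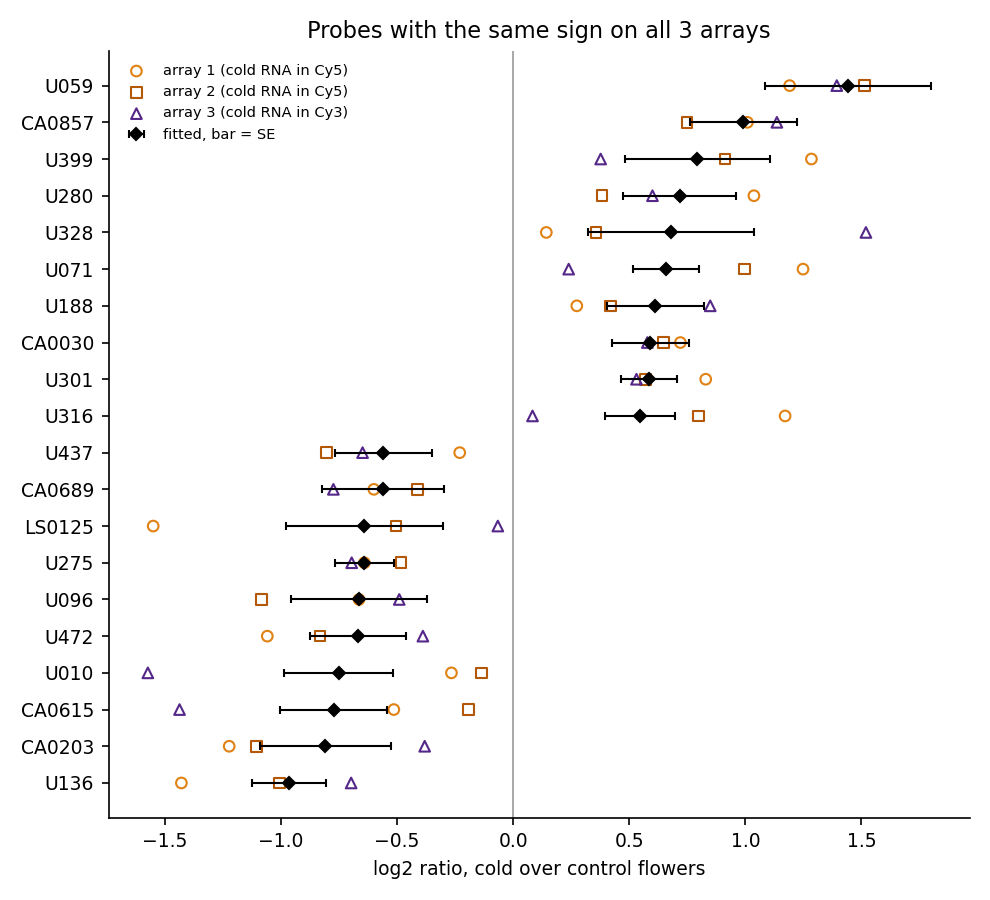
Log2 ratios of cold over control flowers on each array (open symbols) and the fitted ratio with its standard error (diamonds and bars) for the 10 highest and 10 lowest fitted probes with the same sign on all 3 arrays. U059 and CA0857 are to the right on each array, U275 is close together at the left, and U328, CA0615 and U010 have array 3 set well apart from arrays 1 and 2.

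The highest fitted ratio came from a probe that array 3 could not measure. U070 had ratios of 2.52 on array 1 and 1.28 on array 2 and no unflagged spot on array 3. The array 2 value came from 1 spot. Its intensity was 6044 in cold and 1054 in control on array 1, and 4326 and 1777 on array 2. The fitted ratio of 2.44 ± 0.48 (SE, n = 2) was 5.44-fold, with an adjusted p of 0.093 in limma. It was 1.25 with flagged spots kept (adjusted p 0.883) and 1.23 with spots dropped only where both channels are flagged (adjusted p 0.893), and 3.12 with scaling between arrays. The value of 2.44 is above the mean of both arrays, 1.90, because the model takes off a dye effect of -0.54 estimated from other conditions.

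U032 had no value on array 1 and ratios of 2.29 on array 2 and 0.52 on array 3, with a fitted ratio of 1.40 ± 0.50 (SE, n = 2), or 2.42 with spots dropped only where both channels are flagged. U074 had the highest ratio on array 1 of any probe, 2.82, and 1.72 on array 2, but -0.04 on array 3. Its cold and control intensities were 10967 and 1548 on array 1, 9254 and 2804 on array 2, and 1328 and 1365 on array 3. The large difference of arrays 1 and 2 was thus not seen with the dyes swapped. U074 also belonged to the 4 probes with 3 values that were 2-fold or more from control on both arrays 1 and 2. The others were U059, CA0203 and U136, and array 3 had their sign.

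The fitted ratio reached 2-fold in 6 probes, which were named after their values were seen where no rule listed them. Higher were U070, U059, U032, U074 and LS0064, and lower was LS0697. LS0697 had ratios of -1.08 and -0.60 and no value on array 3, with a fitted ratio of -1.30 ± 0.33 (SE, n = 2). LS0064 had ratios of -0.39 and -0.12 on arrays 1 and 2 and 2.98 on array 3, from 1 spot, so its positive estimate rests on that spot.

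The common dye term itself passed an adjusted p of 0.05 in limma for 64 of the 428 probes (15%). Array 3 was tested against arrays 1 and 2 by giving cold flowers a dye term of their own. That term differed from the common one for 2 of 345 probes (0.58%) at an adjusted p of 0.05 in limma. These were LS0064 and CA0890, with differences of -1.58 and -1.50 and an adjusted p of 0.0289 each. Both had a single unflagged spot on array 3, where CA0890 stood at 2.06 against -0.59 and -0.43 on arrays 1 and 2. Neither passed when flagged spots were kept. The other probes did not pass this test.

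Other probes far from 0 on arrays 1 and 2 had the opposite sign on array 3 from 2 or more spots. LS0093 had -1.52 and -0.94 on arrays 1 and 2 and 1.23 on array 3, from 3 spots. U394 had -1.24, -0.69 and 1.44, with 6 spots on each array. U307 (-1.10, -0.82 and 0.68), LS0148 (-1.03, -0.80 and 0.46), CA0426 (0.94, 1.33 and -0.85), U256 (1.05, 0.95 and -0.36) and CA0694 (1.14, 0.79 and -0.13) did likewise. The array 3 value of LS0148 came from only 2 spots. Their arrays do not share a direction. The fitted ratio of CA0694 was nevertheless 0.45 ± 0.14 (SE, n = 3), with an adjusted p of 0.194 in limma and a dye term of 0.46.

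With a dye term of its own, cold flowers had 6 of 349 probes past an adjusted p of 0.05 in limma (1.72%), 3 higher and 3 lower. The higher ones were U071 at 0.68, U301 at 0.62 and LS0064 at 1.36. The lower ones were U124 at -0.64, U275 at -0.63 and CA0318 at -0.58. Adjusted p-values ran from 0.0094 for LS0064 to 0.0444 for CA0318. CA0318 had ratios of -0.25, -0.03 and -1.01, so array 3 supplied most of it. Only probes with a value on array 3 could enter, and the estimate then weighs array 3 as much as arrays 1 and 2 together.

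By group of codes, unadjusted p-values under 0.05 were found for 11.3% of the 291 U probes tested (17 higher and 16 lower in cold flowers), 14.4% of the 90 CA probes (6 and 7) and 10.6% of the 47 LS probes (2 and 3), beside 11.9% of all probes. Median fitted ratios were -0.04 for U, 0.11 for CA and -0.19 for LS, and -0.01 for all 428 probes. The difference between the groups was not tested.

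Cold leaves are the comparison closest to cold flowers, with the same cold treatment in another tissue. The fitted ratios of the tissues had a correlation of 0.66 across 387 probes, and 70.8% had the same sign. Both come from 1 fit and share its dye term and its estimate of the spread of each probe. The labels do not say whether leaves and flowers were cut from the same plants. Correlations of cold flower arrays 1 and 2 with cold leaf arrays 1 and 2, of the same dye orientation, were 0.48 to 0.68. With cold leaf array 3, of the opposite orientation, they were 0.26 and 0.32. For cold flower array 3 they were -0.10, -0.06 and 0.20, the last with the cold leaf array of the same dye orientation.

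Cold leaves had 16 of 421 probes past an adjusted p of 0.05 in limma (3.8%), 12 higher and 4 lower. Of these, 15 were tested in cold flowers, and U368 was not. The flower estimate had the leaf sign for all 15, with 11 higher and 4 lower. In flowers 11 of the 15 had an unadjusted p under 0.05, beside 11.9% of all probes tested. The p-values of the tissues are not independent, since a probe with a small shared spread estimate tends to a small p in both. The 11.9% is therefore only a loose yardstick. On 12 of the 15 every flower array with a value had the leaf sign, beside 32% of the 387 probes tested in both tissues. Array 3 alone had the leaf sign for 12 of the 13 it measured, beside 53.2% of the 329 probes tested in both tissues with a value on that array. CA0694 was the exception.

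The sizes in flowers were mostly smaller. Of the 11 probes higher in cold leaves, the median fitted ratio was 0.50 in cold flowers and 1.11 in cold leaves, and the leaf values are those by which the probes were chosen. The lower ones were U096 (-0.67 in cold flowers and -1.20 in cold leaves), CA0689 (-0.56 and -1.14), LS0381 (-0.38 and -1.05) and U437 (-0.56 and -0.97). The ratio of U070 was 2.44 in cold flowers and 2.78 in cold leaves. Its leaf value also came from arrays 1 and 2 alone (1.59 and 2.89), and the same dye effect of -0.54 was taken off both estimates. CA0857 had 0.99 in cold flowers and 1.21 in cold leaves (adjusted p in leaves 0.0136 in limma), U071 had 0.66 and 0.79 (adjusted p 0.00845), and U301 had 0.59 and 0.59 (adjusted p 0.0209). U301 and U071, with the smallest adjusted p among the probes higher in cold flowers, were thus also called in cold leaves. U059 was not, with 1.44 in cold flowers and 0.95 in cold leaves (adjusted p in leaves 0.185 in limma).

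U275 and U124, the lower ones, were not called in leaves. U275 had -0.64 in cold flowers and -0.22 in cold leaves, and U124 had -0.56 and -0.09. Neither difference passed the test between tissues (adjusted p 0.934 each in limma).

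**Figure D3:**
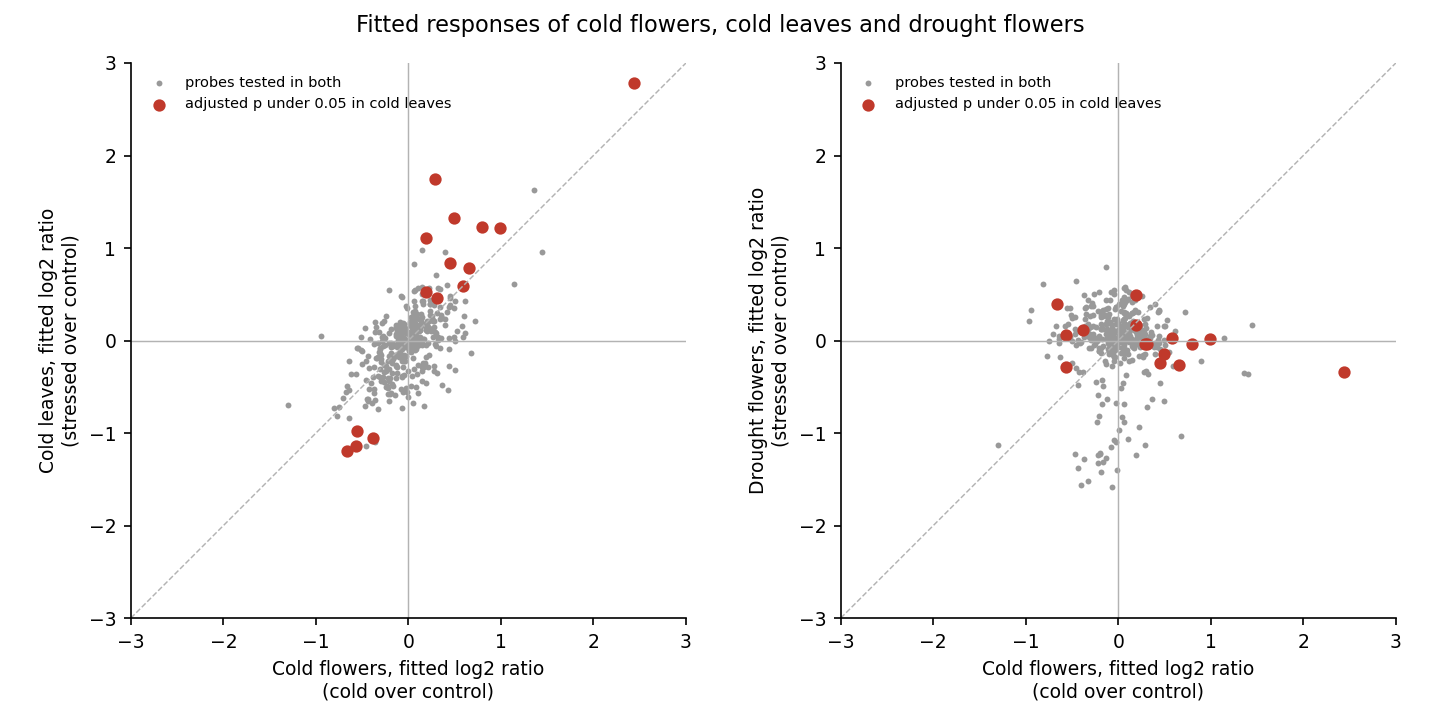
Fitted log2 ratios of cold flowers on the x axis against those of cold leaves (left, y axis) and drought flowers (right, y axis), each stressed over control. Red points are probes past an adjusted p of 0.05 in cold leaves. In the left panel they lie in the upper right and lower left, while in the right panel they lie between -0.34 and 0.49 on the drought axis. The dashed line marks equal values.

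The difference between tissues was tested for 388 probes and passed for 0 at an adjusted p of 0.05 in limma (0%), with 17 at an unadjusted p under 0.05 (4.38%). The smallest adjusted p was 0.934. The lowest difference belonged to CA0897. Its ratios were 0.54, 0.41 and 0.13 in cold flowers against 2.09, 2.16 and 1.22 in cold leaves, without overlap. The fitted ratios were 0.29 in cold flowers and 1.75 in cold leaves, a difference of -1.46 ± 0.46 (SE) with an unadjusted p of 0.00665 and an adjusted p of 0.934 in limma. With only both cold conditions fitted, CA0897 was the 1 probe that passed (adjusted p 0.0222).

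U488 had ratios of 0.39, 0.00 and 0.98 in cold flowers, against 1.24 and 1.18 in cold leaves. The fitted ratios were 0.50 and 1.33, and the difference was -0.83 ± 0.27 (SE). With loess by subgrid U488 was the 1 probe that passed (adjusted p 0.0478 in limma). U284 had 0.09, 0.41 and 0.29 in cold flowers, against 0.86, 1.56 and 1.11 in cold leaves. CA0878 was lower in cold flowers on arrays 1 and 2 (-1.23 and -0.39) and near 0 in cold leaves (-0.02 and 0.12).

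In the other direction, CA0880 had 0.95, 0.39 and 0.10 in cold flowers, against 0.35, 0.00 and -1.81 in cold leaves. U102 had -0.34, -0.45 and 0.74 in cold flowers, against -2.25, -0.56 and 0.16 in cold leaves. In both probes 1 leaf array lay far from the others. At an unadjusted p under 0.05 in each tissue, 24 probes had the same sign in both tissues and 0 the opposite one, where 11.9% of probes tested in cold flowers and 16.9% of those tested in cold leaves reached that p. The shared dye term and spread estimate tie the tissues together in this count as well.

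Drought flowers are the same tissue under another stress, with control plants of their own. Fitted ratios of cold and drought flowers had a correlation of 0.00 across 415 probes and the same sign for 50.6%. Single arrays went both ways. Cold flower arrays 1 and 2 had correlations of 0.27 to 0.43 with drought flower arrays 1 and 2, which share their dye orientation. With drought flower array 3, of the opposite orientation, they had -0.29 and -0.12. Cold flower array 3 had -0.54, -0.31 and -0.26 with drought flower arrays 1, 2 and 3, the last of its own orientation. The part of the dye in these values was not tested. Drought flowers had no probe past an adjusted p of 0.05 in limma (0% of 434, with 51 at an unadjusted p under 0.05, 11.8%). The difference between the stresses passed for 0 of 415 probes (0%) in limma, with 47 at an unadjusted p under 0.05 (11.3%) and a smallest adjusted p of 0.144. Without drought flower array 2 it passed for 4 of 193 probes, and without drought flower array 3 for 5 of 189.

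That smallest adjusted p belonged to U071, which had a fitted ratio of 0.66 in cold flowers and -0.26 in drought flowers. With flagged spots left out, U070 had the largest difference, 2.79 ± 0.62 (SE), with 2.44 in cold flowers and -0.34 in drought flowers. The drought arrays for it read -0.87 and 0.18. U032 had 1.40 in cold flowers and -0.36 in drought flowers.

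U328 had 0.68 in cold flowers and -1.03 in drought flowers, where 1 array at -2.53 supplied most of it. CA0203 had -0.81 in cold flowers and 0.61 in drought flowers, again with 1 drought array far from the others (1.35 beside -0.11 and 0.30). U136 had -0.97 in cold flowers and 0.21 in drought flowers, with drought arrays at 0.00 and 0.41. The 4 differences of U070, U328, CA0203 and U136 had an adjusted p of 0.188 each in limma.

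The authors' deposited table gives 1 log2 value per probe for cold flowers, described as a mean over the replicates. A value was present in the authors' deposited table for 481 probes, with a median of -0.13. In that column of the authors' deposited table, 4 probes were at 1 or above and 79 at -1 or below. The shift used in its logarithm and its centring are unknown, so sizes are compared only loosely.

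Higher probes matched the fit. The 4 at 1 or above in the authors' deposited table were U032 (1.82), U074 (1.46), U070 (1.39) and U059 (1.24), named here for being so few. All had a fitted ratio above 0. Only U059 of these was 2-fold higher on array 3.

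Lower probes matched less well in size. Of the 79 at -1 or below in the authors' deposited table, 53 could be tested here and 43 of those had a fitted ratio below 0. Over all 427 tested probes with a deposited value, 75.2% had the same sign as the fit. The median fitted ratio of the 53 was -0.24, well short of the deposited size. Of the 79, 40.5% were above background in all 6 channels, beside 71.3% of all probes with a value in the authors' deposited table. Of the 25 at -2 or below in the authors' deposited table, 4 were above background in all 6 channels, 11 could be tested, and the median fitted ratio of those was -0.21. The values of -2 or below thus belonged mostly to probes that were not above background in every channel.

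**Figure D4:**
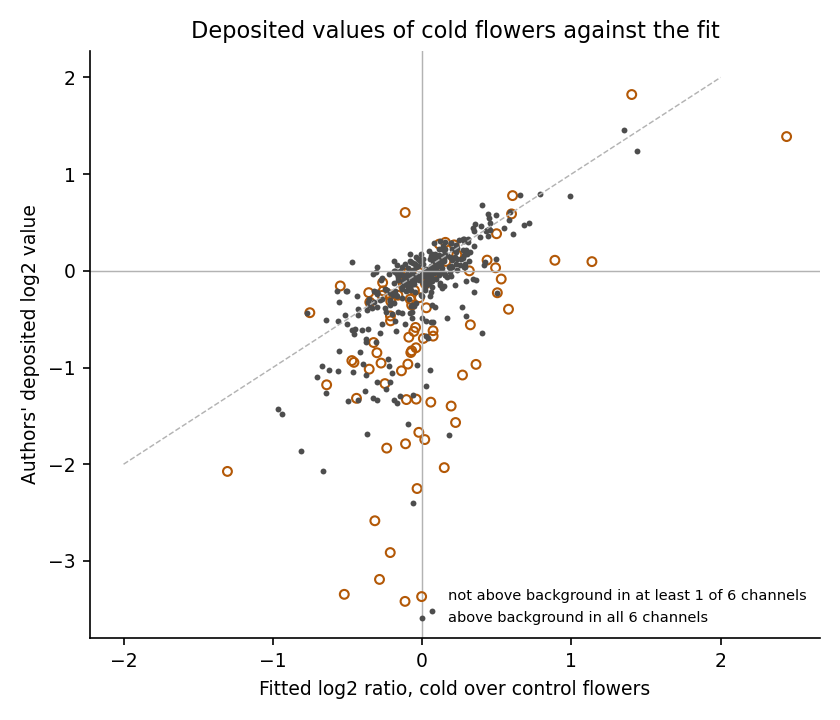
The authors' deposited log2 value for cold flowers (y axis) against the fitted log2 ratio of cold over control flowers (x axis) for 427 probes. Open circles are probes not above background in at least 1 of 6 channels, and filled points are above background in all 6. On the right U059 and U074 are near the dashed line of equal values. U032 is above it (1.40 fitted, 1.82 deposited) and U070 is to its right (2.44 and 1.39). Below -1 on the y axis many points have fitted ratios near 0.

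Across 427 probes the authors' deposited table and the fit had the same sign for 321 (75.2%). A regression of the column of the authors' deposited table on the 3 arrays' ratios, over 319 probes, gave coefficients of 0.24 for array 1, 0.74 for array 2 and 0.08 for array 3. On arrays 1 and 2 the column thus ran as cold over control. Whether array 3 was turned before averaging is not settled. The dye control Cy5-10T had 2.87 and 2.98 in the authors' deposited table, where the arrays' mean log2 ratio of that control was 1.32 with array 3 turned and 3.57 without. Its correlation with the arrays was 0.31, 0.56 and 0.04, so array 3 had the least likeness to the deposited mean.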

How the data were processed

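Per the file headers, ImaGene 5.5 made the deposited intensities, which are the mean brightness of a spot's pixels and of those around it, and flagged empty or poor spots. The deposited log2 table was made by the authors in GeneSight after background subtraction, omission of flagged spots and LOWESS, per the series design. Dye and role came from file names. All 3 cold flower arrays were quantified on 1 of 5 days.

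Here background was corrected with normexp (offset 50), arrays were normalised by loess (which sets the typical probe to no change), flagged spots left out, ratios turned to cold over control, and spots averaged. Limma 3.58.1 in R 4.3.3 fitted 7 conditions with a common dye term. Salt roots at 24 h were left out, their 3 arrays being copies of 1 scan. The code was tested on simulated data. A further 5 probes with 2 arrays could not be separated from dye, and 3 of the 428 tested had no residual degree of freedom. The number of arrays limits the precision.

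Probes and tests were chosen with earlier results of these data known. The naming rule took the 10 highest and 10 lowest with the same sign on all arrays, the 3 highest and 3 lowest with 2 arrays, and 4 in each direction with array 3 opposite. It also took the 5 highest and the only 4 lower ones called in leaves, the 3 largest differences in each direction from each other condition, bounds, and the 5 smallest p-values. Not every probe taken by the rule is described above. Word lists for cell types matched nothing, since the files hold no gene descriptions.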

Additional observations from a re-analysis of the deposited data

How the results depend on the processing

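The count of 0 cold flower probes past the threshold was kept with plain background subtraction, median centring, loess by subgrid, flagged spots kept, spots dropped only where both channels are flagged, the median of spots, no dye term, robust moderation, and with any 1 array left out (0 to 0). It became 6 with no background correction, 12 with scaling between arrays, 5 when probes had to be above background in both channels, 5 with at least 3 unflagged spots, 4 with values on 3 of 3 arrays, 2 with an own dye term for drought and cold, 4 with an own dye term for each condition, 28 when cold flowers were fitted alone, 13 with array quality weights and 6 with the day of quantification as a block. The cause was not tested. Replicate numbers come from file names, not from the labels. With the replicate block the count was 0, and it was also 0 for the differences from cold leaves and from drought flowers; the own dye effect was not run with it. Deviations of same-numbered arrays of cold flowers and cold leaves had correlations of 0.12, 0.19 and -0.09 across 273 probes, and those of cold and drought flowers 0.54, -0.39 and 0.59 across 182, so not every pair was above 0.1 and the arrays were not treated as paired. The difference from cold leaves passed for 1 probe (U488) with loess by subgrid and 1 (CA0897) when only both cold conditions were fitted, and for none (0 to 0) with any 1 array left out. The difference from drought flowers passed for 9 probes with scaling between arrays. It passed for 4 without drought flower array 2 and 5 without drought flower array 3, and leaving out single arrays gave 0 to 5. The 2 probes with an own dye effect became 0 with median centring, 0 with flagged spots kept and 0 with spots dropped only where both channels are flagged. Of 44 named probes, 39 kept the sign of their fitted ratio under every alternative run. CA0890 turned to -0.10 with flagged spots kept, -0.73 above background in both channels, -0.73 with at least 3 spots and -0.0082 with array weights, and ran from -0.73 to 0.82 with an array left out. U170 turned to 0.37 where only spots flagged in both channels were dropped and to 0.22 with the replicate block, and U102 to -0.017 with no dye term. LS0093 turned to 0.000191 with an own dye term for each condition and when fitted alone, and ran from -1.16 to 0.14 with an array left out. U394 turned to 0.24 with an own dye term or fitted alone, and ran from -1.18 to 0.38 with an array left out. The correlations of array 3 with arrays 1 and 2 under flagged spots kept, and the detection counts without an array, were computed after the data were seen. Signal over background limits what can be said of LC probes and most LS probes.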
